A study of Mus musculus with 10 samples.

Results

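Distal Rcor2 peaks are the stretches of chromatin that the authors' peak table classes as distal, by a rule not given, and names for 1 gene each. They were taken as every peak whose deposited location class was distal, which gave 1219 of the 6995 peaks in the table. The other classes held 1619 promoter, 2515 gene body and 1642 intergenic peaks. The study asked about the role of REST co-repressor 2 (Rcor2) in the formation of the corpus callosum, and all tissue was cortical midline from mouse embryos at embryonic day 14.5. For chromatin immunoprecipitation with sequencing (ChIP-seq), wild-type C57/Bl6 midline was fixed in 2 steps, with the protein crosslinker EGS and then with formaldehyde. From it came 2 libraries with a ProteinTech antibody to Rcor2, 2 with rabbit IgG that recognises no specific target, and 2 of input chromatin. For RNA-seq there were 2 conditional knockout (cKO) libraries, Rcor2f/f/EMX1-iCRE, and 2 control libraries, Rcor2f/f, so both genotypes carried the floxed alleles. Emx1-iCre acts in progenitors of the dorsal telencephalon, and cells of other origin, such as vessels, meninges and immigrant interneurons, keep Rcor2. The labels do not say which exons were floxed, whether embryos were pooled, or whether replicates came from separate embryos or litters, so p-values measure the spread between these libraries, which may be technical.

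Rcor2 belongs to the CoREST proteins, scaffolds that hold the demethylase LSD1 (Kdm1a) and histone deacetylases together on chromatin, and the family is known for keeping neuronal genes repressed in cells that are not neurons. Sequence far from gene starts can hold enhancers, which act on a gene from a distance, and also other transcription units such as tRNA and microRNA genes. tRNA genes are transcribed by RNA polymerase III from 2 elements that lie inside the gene, the A box and the B box. Among the microRNAs with a distal peak, miR-9 and let-7 are known in the developing cortex for slowing progenitor division and favouring neuronal differentiation.

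Sequence could be read where a distal peak overlapped a RefSeq promoter window, 250 bases before to 50 after a gene start (build GRCm38.p6, the assembly of mm10). That was so for 31 distal peaks, with 35 overlapping segments of 5 to 300 bases and a median of 173. A segment of the peak named for Zfp692 holds 17 bases of the leucine tRNA gene n-TLcaa3 and is not shown. The 3 segments that follow were chosen because more of a tRNA gene lies in them. A tRNA gene lies in 94 of the distal peaks. The segments are those of the peaks named for C230035I16Rik, Lrp3 and Fcgr4. Each is written 5′ to 3′ on the strand of the promoter window, and capitals mark the bases of the tRNA gene.
Valine tRNA gene n-TVcac9 in a peak named for C230035I16Rik, chr13:23445956-23446221, minus strand: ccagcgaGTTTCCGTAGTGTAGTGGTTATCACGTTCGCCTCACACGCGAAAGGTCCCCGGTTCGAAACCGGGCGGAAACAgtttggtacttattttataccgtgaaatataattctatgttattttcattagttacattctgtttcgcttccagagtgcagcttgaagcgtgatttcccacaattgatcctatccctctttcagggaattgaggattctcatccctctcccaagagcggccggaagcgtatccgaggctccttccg
Threonine tRNA gene n-TTagt9 in a peak named for Lrp3, chr7:35234765-35234909, minus strand: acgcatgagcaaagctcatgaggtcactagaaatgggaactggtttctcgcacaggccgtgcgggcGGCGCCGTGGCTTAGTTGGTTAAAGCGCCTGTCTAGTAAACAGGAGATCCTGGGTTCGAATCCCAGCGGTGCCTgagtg
Asparagine tRNA gene n-TNgtt6, cut by the window's end, in a peak named for Fcgr4, chr1:171033969-171034157, minus strand: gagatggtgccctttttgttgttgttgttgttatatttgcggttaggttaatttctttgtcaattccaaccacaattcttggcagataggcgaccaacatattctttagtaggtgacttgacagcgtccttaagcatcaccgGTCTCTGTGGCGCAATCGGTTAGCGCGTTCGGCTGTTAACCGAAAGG
The C230035I16Rik peak had heights of 20 and 29 in the Rcor2 libraries, against 17 and 15 in input. The Lrp3 peak had 19 and 28 in the Rcor2 libraries, against 27 and 24 in input, and the Fcgr4 peak had 17 and 25, against 20 and 14. Only in the first of these did both Rcor2 heights exceed both input heights. The letters GTTCGANNC, which the B box of tRNA genes carries, were found on either strand in 2 of the 33 promoter windows that a distal peak overlapped (6.06%), those of the valine and threonine segments. They were in 237 of all 27025 promoter windows (0.877%).

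For contrast, the tallest distal peak that met a promoter window held no tRNA gene. It is named for Gm15446 and covers chr5:109923078-109923788, with heights of 46 and 61 in the Rcor2 libraries, 5 and 4 in IgG and 16 and 19 in input. Its summit lies inside the coding gene LOC115490200, 4 bases from the start of that gene, so it is far only from the start of Gm15446. The overlap of the peak with the window of LOC115490200 is shown whole, with no capitals because it holds no tRNA gene.
Segment of the Gm15446 peak, chr5:109923203-109923502, plus strand: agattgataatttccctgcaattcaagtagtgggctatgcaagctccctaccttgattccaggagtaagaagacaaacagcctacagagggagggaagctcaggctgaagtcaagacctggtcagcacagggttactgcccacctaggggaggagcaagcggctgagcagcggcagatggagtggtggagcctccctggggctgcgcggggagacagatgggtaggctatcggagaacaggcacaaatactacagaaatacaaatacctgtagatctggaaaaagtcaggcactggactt
The mature microRNAs below come from genes whose distal peaks are described further on, with the seed (bases 2 to 8) in capitals and the sequences as in RefSeq.
miR-9-5p, from Mir9-1 and Mir9-2: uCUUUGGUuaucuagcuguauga
miR-9-3p, from Mir9-1 and Mir9-2: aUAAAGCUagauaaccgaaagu
let-7a-5p, from Mirlet7a-1: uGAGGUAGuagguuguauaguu
miR-23a-3p, from Mir23a: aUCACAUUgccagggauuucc
miR-6546-5p, from Mir6546: aGGCGCCUcugagcuugugcuugu
miR-6546-3p, from Mir6546: gAGCGAAGcccaagcgccaga
These 6 have 6 different seeds. Of the 27 microRNA genes named for the 57 distal peaks of this kind, 18 had a mature sequence in the table used, and Mir193a and Mir193b shared the seed ACUGGCC in their 3p products.

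Peak heights gave the Rcor2 signal at each region. A height is the deposited coverage at the peak in 1 library, with no known scaling for depth, and the peaks had been called on these same Rcor2 libraries against IgG. At distal peaks the median height was 13 (25th to 75th percentile 11 to 17) and 19 (17 to 24) in the Rcor2 libraries. It was 5 (3 to 6) and 4 (2 to 5) in IgG, and 13 (9 to 18) and 12 (9 to 16) in input. The Rcor2 and input heights thus overlapped at the typical distal peak, and the IgG heights lay under both. The median Rcor2 heights were also 13 and 19 at gene body and at promoter peaks. Both Rcor2 heights exceeded both IgG heights at 1199 distal peaks (98.4%; 98.9% of all peaks), which is the contrast behind peak calling and is given as a description only. Both Rcor2 heights exceeded both input heights at 510 distal peaks (41.8%), against a background of 40.3% of all peaks. Both lay under both input heights at 88 distal peaks (7.22%), and the libraries overlapped at 621 (50.9%). Without Rcor2 replicate 1, whose heights were the lower ones, 929 distal peaks had Rcor2 above both inputs. Leaving out a library can only keep or raise this count, because fewer heights are compared, so the rise itself is no result. The count over all peaks was not made for this setting.

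The median ratio of Rcor2 to input was higher at distal than at promoter peaks and close to that of the remaining classes. The median log2 ratio of Rcor2 to input height (0.5 added to both) was 0.42 at distal peaks, 0.20 at promoter peaks, 0.43 at gene body peaks and 0.45 at intergenic peaks. The difference of distal from promoter peaks was 0.22, and it was positive in each of the 4 pairings of an Rcor2 with an input library (0.21 to 0.29). An exact two-sided permutation test over the 4 libraries gave p = 0.333, the smallest these libraries allow, so no class difference could pass a threshold. Against all other peaks together distal peaks differed by 0.038 (exact permutation p = 0.333), by 0.060 without Rcor2 replicate 1 and by 0.017 without Rcor2 replicate 2. The difference from gene body peaks was -0.0099 (exact permutation p = 1). The share with Rcor2 above both inputs was 41.8% for distal peaks, against 30.4% for promoter peaks. Median Rcor2 heights were the same in both classes, while median input heights were 13 and 12 at distal peaks, against 15 and 14 at promoter peaks. Over IgG, the median log2 ratio was 1.99 at distal peaks, against 2.05 at promoter peaks (-0.06, the opposite direction to that over input) and 1.99 at all other peaks.

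**Figure D1:**
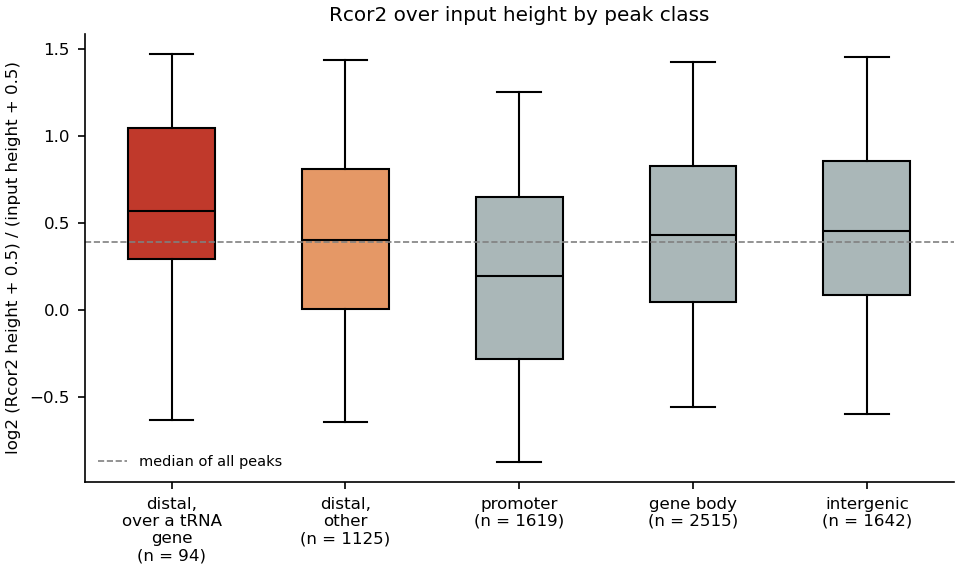
Log2 ratio of Rcor2 to input height (0.5 added to both) for distal peaks over a tRNA gene, other distal peaks and the promoter, gene body and intergenic classes; boxes span the 25th to 75th percentile over peaks, whiskers the 5th to 95th, and the centre line is the median. The median is 0.57 for distal peaks over a tRNA gene, 0.40 for other distal peaks and 0.20 for promoter peaks.

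Each peak was also read against the median peak of the same library, by limma-trend on log2(height + 0.5) over all 6995 peaks with Benjamini-Hochberg adjustment. By that test 97 distal peaks lay above the median peak in Rcor2 over input (7.96%), against 6.46% of all peaks, and 103 lay below it (8.45%), against 9.58%. For promoter peaks the shares were 5.37% above and 17.2% below, for gene body peaks 6.0% and 6.60%, and for intergenic peaks 7.13% and 7.49%. The count rests on all 4 libraries: 69 of the distal peaks passed without Rcor2 replicate 1, 101 without Rcor2 replicate 2, 26 without input replicate 1 and 11 without input replicate 2. With heights as deposited and no centring, 45 distal peaks passed above and 2 below.

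Larger shares of distal than of other peaks were long or tall. Of 1219, 84 were at least 600 bases long (6.89%), against 169 of the 5776 other peaks (2.93%). A mean Rcor2 height of at least 40 was reached by 27 distal peaks (2.21%), against 52 other peaks (0.900%). The medians did not show this: the length was 235 bases at distal peaks and 244 at promoter peaks, and the authors' deposited fold enrichment over IgG had a median of 4.0 in both classes. The longest distal peak had 1673 bases.

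Most of the class lay away from the starts of its genes, as its label implies, so these distances describe the label. For the 900 distal peaks whose gene start was known in RefSeq, the median distance from summit to start was 17028 bases, and 861 (95.7%) lay within 2 to 50 kb. Upstream of the start lay 792 of them (88.0%), against 63.4% of promoter and 7.53% of gene body peaks with a known start. The label may fix this share as well, since peaks in gene bodies have a class of their own. By RefSeq coordinates 116 distal summits fell inside some coding gene, and 73 inside the span of the gene named for the peak. Of the 900 peaks, 13 lay within 2 kb of the start. The class was thus not free of gene bodies or of sequence near gene starts. Rcor2 over input showed no order with distance: the median log2 ratio was 0.44 under 5 kb, 0.45 at 5 to 10 kb, 0.37 at 10 to 20 kb, 0.38 at 20 to 30 kb and 0.43 at 30 to 50 kb. By chromosome, distal peaks made up 26.7% of the peaks on chromosome 13 and 23.3% on chromosome 11, and 8.30% on chromosome 18.

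tRNA genes lay under some of the long and tall distal peaks. They lay under 24 of the 84 that were at least 600 bases long. Of the 27 with a mean Rcor2 height of at least 40, they lay under 8. A longer peak covers more sequence and can meet a gene more easily, which was not accounted for. A RefSeq tRNA gene overlapped 94 of 1219 distal peaks (7.71%), against 36 promoter (2.22%), 4 gene body (0.159%) and 14 intergenic peaks (0.853%). These 94 peaks covered 124 of the 430 tRNA genes in RefSeq (28.8%), and peaks of any class covered 184 (42.8%). Of the 94, 38 lay on chromosome 13, where mouse tRNA genes sit among the histone genes, and 15 on chromosome 11. For comparison, no distal peak overlapped a microRNA, snRNA, snoRNA or rRNA gene, and 207 overlapped a long noncoding RNA gene (17.0%), against 17.8% of intergenic peaks. This grouping was made after the tallest peaks had been seen, and it is a description with no test. Copies of a tRNA gene can be near-identical, and no source used here says how reads that match several places were handled.

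Peaks over tRNA genes were taller and longer than other distal peaks. Their median Rcor2 heights were 17 and 26, against 13 and 19 at other distal peaks. Their IgG heights were higher too, 6 and 5 against 4 and 3, while input was 15 and 13.5 against 13 and 12. The median log2 ratio of Rcor2 to input was 0.57, against 0.40 at other distal peaks, and the difference was positive in all 4 library pairings (0.15 to 0.26). Over IgG the median was 1.87 at peaks over tRNA genes, against 1.99 at other distal peaks, and the direction depended on the IgG library: the difference was 0.10 and 0.12 over IgG replicate 1 and -0.22 and -0.19 over IgG replicate 2. IgG lay below input in both sets, by a median log2 ratio of -1.24 at peaks over tRNA genes, against -1.63 at other distal peaks. The part of the IgG heights in the Rcor2 heights was not tested. Of the 94 peaks 24 were at least 600 bases long (25.5%), against 60 of 1125 other distal peaks (5.33%). Above the median peak lay 20 (21.3%), against 77 (6.84%), and below it 7 (7.45%), against 96 (8.53%). Promoter peaks over tRNA genes were also taller, with median Rcor2 heights of 16 and 26, against 13 and 19 at other promoter peaks. Of them 22.2% were at least 600 bases long, against 2.15%, and 19.4% lay above the median peak, against 5.05%. The 14 intergenic peaks over tRNA genes had medians of 14.5 and 23, and none lay above the median peak.

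The peaks named for Trim27, a RING-finger ubiquitin ligase, were the tallest of this kind. One covered chr13:21169205-21170496 with 1 methionine and 2 leucine tRNA genes (n-TMcat15, n-TLaag7 and n-TLaag5). Its heights were 47 and 74 in the Rcor2 libraries, 7 and 7 in IgG and 19 and 16 in input. That is a log2 difference of 1.41 from the median peak (SE 0.23, limma adjusted p = 6.5e-07). All 3 distal peaks named for Trim27 lay over tRNA genes and above the median peak. The Trim41 peak, chr11:48855985-48857296, held proline, valine and leucine tRNA genes, with heights of 49 and 52 in Rcor2, 7 and 8 in IgG and 16 and 18 in input. The longest distal peak, named for Aurkb (1673 bases), held 4 tRNA genes, and its Rcor2 heights of 27 and 48 overlapped the input heights of 28 and 22. Peaks over tRNA genes could also lie low: 3 peaks named for Mir6546 had Rcor2 heights of 17 to 37 and input heights of 41 to 52, and all passed below the median peak. In each of those 3 both Rcor2 heights lay under both input heights.

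The 10 tallest distal peaks were named for Lep, Trim27, Kif11, Fam222a, Gm15446, Msx1, Urm1, Tcf20, Erdr1 and Trim41. The Lep peak, chr6:29036922-29037571, 23133 bases upstream of the leptin gene, was the tallest, with 51 and 80 in the Rcor2 libraries, 10 and 3 in IgG and 17 and 20 in input. Its log2 difference from the median peak was 1.44 (SE 0.22, limma adjusted p = 2.7e-07), and Lep itself was not in the RNA table. The Kif11 peak, 13289 bases upstream of this mitotic kinesin gene, had 51 and 67 in Rcor2, 9 and 10 in IgG and 23 and 21 in input. The Msx1 peak, 33897 bases upstream of a Bmp-responsive homeobox gene, had 53 and 53 in Rcor2, 6 and 6 in IgG and 21 and 14 in input. In all 3 peaks the Rcor2 heights stood clear of both other kinds of library. The Tcf20 peak had Rcor2 heights of 45 and 59, but input heights of 31 and 35 as well, and a difference from the median peak of 0.32 (limma adjusted p = 0.318). The chromosome Y peak named for Erdr1 was alike, with 42 and 62 in Rcor2 and 31 and 36 in input (limma adjusted p = 0.38). Of the 10 tallest, 8 passed above the median peak of Rcor2 over input, and those of Tcf20 and Erdr1 did not. Of all distal peaks 7.96% did. The 10 were picked by height in the same Rcor2 libraries, which favours passing, so this count is a description and no test.

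**Figure D2:**
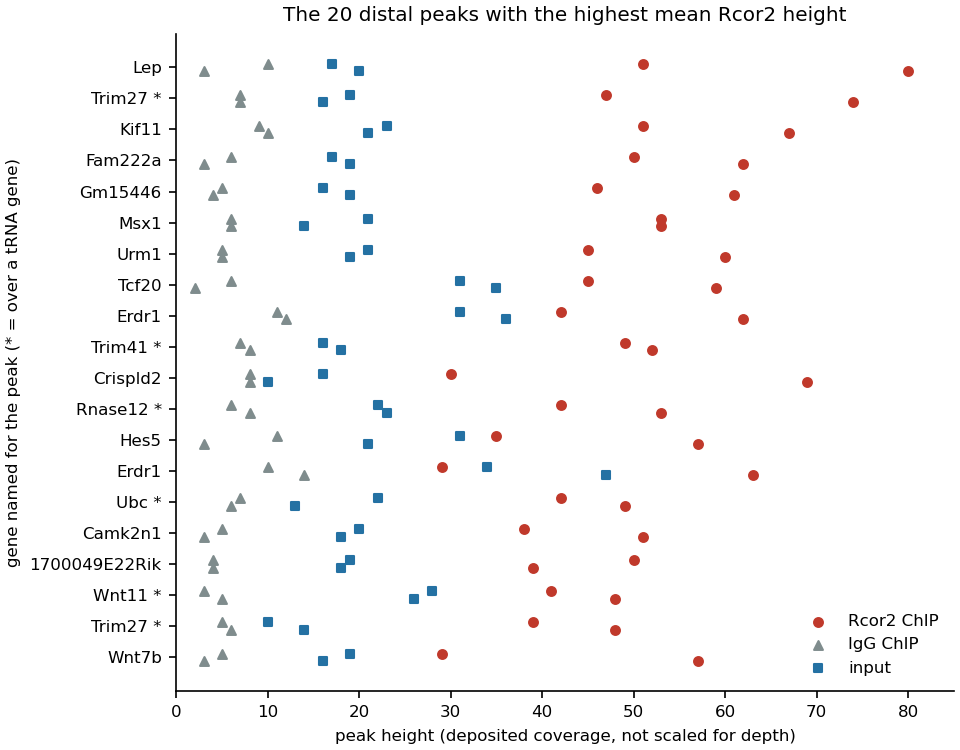
Heights of the 20 distal peaks with the highest mean Rcor2 height, in the Rcor2, IgG and input libraries (1 point a library; deposited coverage, not scaled for depth); rows are the named genes and an asterisk marks peaks over a tRNA gene. The Lep peak reaches 51 and 80 in the Rcor2 libraries, and the Tcf20 and Erdr1 peaks have input heights of 31 to 47.

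The largest ratios of Rcor2 to input came mostly from low input. The Lin28b peak lies 4171 bases upstream of the start used here for this inhibitor of let-7 maturation, but inside its RefSeq gene span. It had 12 and 18 in Rcor2, 4 and 0 in IgG and 1 and 0 in input, and passed (limma adjusted p = 0.014). The Gm5622 peak, with 10 and 13 in Rcor2 and 1 and 0 in input, did not pass (limma adjusted p = 0.064). The Echdc2 peak was taller, with 21 and 36 in Rcor2, 3 and 2 in IgG and 7 and 3 in input. It differed from the median peak by 2.13 (SE 0.37, limma adjusted p = 4.7e-06). At the other end, the Tagap peak had 14 and 18 in Rcor2, against 58 and 44 in input (log2 difference -1.96, SE 0.23, limma adjusted p = 6.3e-11). All 4 distal peaks named for Tagap lay below the median peak. The Rps6ka1 peak had 9 and 15 in Rcor2, against 38 and 30 in input (-1.82, limma adjusted p = 1.0e-07). These low-ratio peaks were still called over IgG, which had heights of 5 and 5 at Tagap and 3 and 2 at Rps6ka1.

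Many distal peaks came in runs. With peaks joined across gaps of at most 5 kb, 420 of them (34.5%) fell into 175 clusters, of which 46 had 3 or more peaks. Such peaks share a neighbourhood and often a gene, so they are not independent of each other. The run with the most peaks had 6 and belonged to Hes5, the Notch effector that keeps radial glia undifferentiated, at chr4:154948161-154958776. Its members differed: the peak 11465 bases upstream had 36 and 47 in Rcor2 and 18 and 18 in input and lay above the median peak (0.85, SE 0.24, limma adjusted p = 0.0059). The peak 8340 bases upstream was taller, with 35 and 57, but input reached 31 and 21 and it did not pass (limma adjusted p = 0.134). The peaks at 12528 and 12230 bases upstream lay below, with 18 and 16 and with 10 and 12 in Rcor2, against 24 and 26 and against 24 and 14 in input. Peaks above and below the median peak thus stood within 2 kb of each other.

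Fzd9, a Wnt receptor, had 7 distal peaks, 2943 to 24556 bases upstream. Rcor2 heights there were 10 to 25, against 13 to 25 in input, and none passed above the median peak. The nearest, with 10 and 18 in Rcor2 and 24 and 21 in input, passed below it (-1.04, SE 0.29, limma adjusted p = 0.0050). Slc7a15, an amino acid transporter gene, also had 7, at 20100 to 36342 bases upstream. Its Rcor2 heights were 6 to 27, its input heights were 1 to 11, and 5 of the 7 passed above the median peak. The 5 peaks named for Hist1h4h, a histone H4 gene, and the 5 named for Hfe2 all lay over tRNA genes. Mir3089 had the most distal peaks, 9, of which 2 lay below the median peak and none above.

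**Figure D3:**
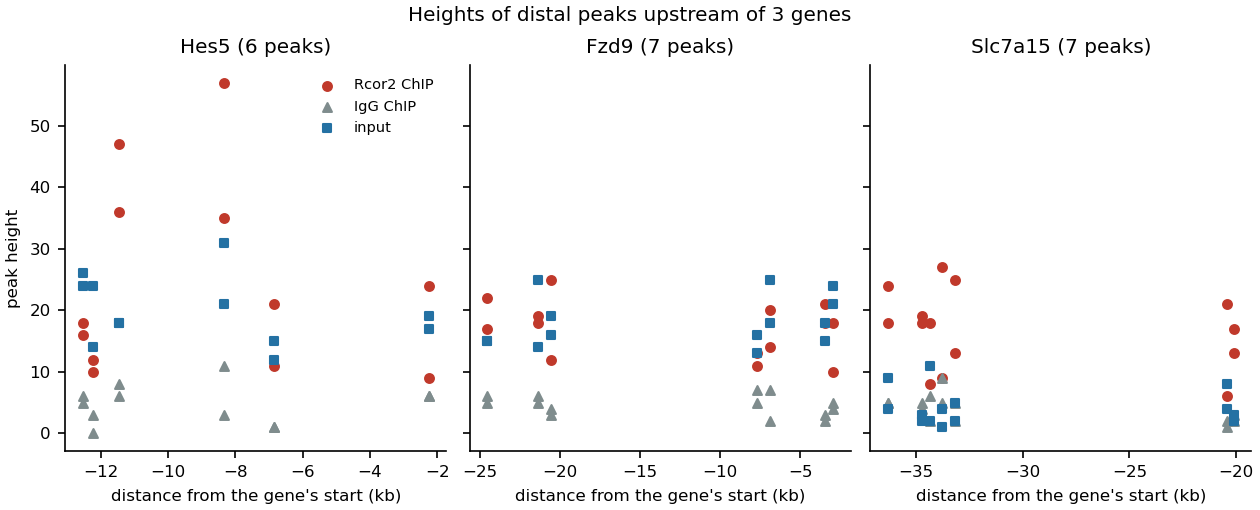
Peak heights in the Rcor2, IgG and input libraries (1 point a library; deposited coverage) against the distance of the summit from the gene's start, for the distal peaks of Hes5, Fzd9 and Slc7a15. Rcor2 reaches 57 at Hes5; at Slc7a15 input stays between 1 and 11.

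Among microRNA genes, the Mir9-2 peak stood out over input. It covered chr13:83743403-83743852, with its summit 4710 bases from the hairpin of the miR-9 sequences shown above. Heights were 35 and 44 in Rcor2, 3 and 6 in IgG and 6 and 9 in input, a log2 difference from the median peak of 2.02 (SE 0.29, limma adjusted p = 4.6e-08). The Mir9-1 peak, at a locus that yields the same mature sequences, had 10 and 14 in Rcor2, against 21 and 14 in input, and did not pass (-0.84, limma adjusted p = 0.056). Of 2 peaks at Mirlet7a-1, one passed, with 15 and 28 in Rcor2 and 8 and 9 in input (limma adjusted p = 0.047). The other had 14 and 20 in Rcor2 and 11 and 8 in input. At Mir23a, 1 of 5 peaks lay below the median peak, with 10 and 19 in Rcor2 and 25 and 26 in input. The RNA table does not measure mature microRNAs. Reads at Mir9-2 were 109 and 94.9 normalized counts in cKO midline, against 101.4 and 100.5 in control midline (limma adjusted p = 0.975). Reads at Mirlet7a-1 were 17.5 and 22.5 in cKO midline, against 21.5 and 7.57 in control midline, groups that overlap.

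The RNA levels of the genes named for distal peaks were compared between cKO and control midline. The table gives the authors' normalized counts, from 27674987 to 30270598 recovered reads a library, and the test was limma-trend on log2(normalized count + 1), a scale on which all fold changes below are given. Rcor2 itself had 6363 and 6840 normalized counts in cKO midline, against 7901 and 7257 in control midline (log2 difference -0.20, SE 0.057, limma adjusted p = 0.054), which did not pass, while in the authors' deposited table it did (-0.19, adjusted p = 0.044). No peak was named for it. Reads outside the deleted exons would still count, so this level does not check the deletion. The 8 dorsal telencephalic markers summed to 65527 and 66148 in cKO and 68565 and 68849 in control midline, and all 8 were detected. Meningeal markers summed to 5349 and 1413 in cKO midline, against 968 and 816 in control midline, and 2 of the 4 were called higher. Markers of ventrally born interneurons summed to 1158 and 1204 in cKO midline, against 1819 and 1942 in control midline, with 3 of 5 called lower. Choroid plexus markers summed to 365 and 361, against 239 and 254, with 2 higher. The 2 erythroid markers in the table summed to 738 and 1147 in cKO midline, against 1318 and 1907 in control midline, with 1 called lower. The part of these markers in the results below was not tested. Of the dorsal telencephalic markers 3 had a distal peak, and none of the meningeal, interneuron, choroid plexus, erythroid, endothelial or microglial markers did. In these bulk samples fewer cells of a type and less RNA per cell cannot be told apart.

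Genes named for distal peaks were called more often than tested genes at large, and more of them upward. The 1219 peaks named 878 genes, of which 703 were in the RNA table and 628 passed the low-value filter. Of the 628, 138 were called (22.0%), against 14.5% of all tested genes. They rose in cKO midline in 82 cases (13.1%), against 6.16% of all tested genes, and fell in 56 (8.92%), against 8.29%. Their median log2 difference was 0.01, against -0.01 for all tested genes. In all, 7 of the 628 rose 2-fold or more, and no gene fell by as much. Among all 14322 tested genes with a unique name 68 rose and 50 fell by that much. Genes of promoter peaks gave 7 and 3 of 1274. Genes whose peaks were all distal gave 50 higher and 39 lower of 433 (11.5% and 9.01%). Genes that also had a peak of another class gave 32 higher and 17 lower of 195 (16.4% and 8.72%). For those 195 the part of each class was not tested. Leaving out control replicate 1 or 2 gave 12 or 10 called genes of distal peaks, against 138 with every library, and 172 or 140 among all genes, against 2070. The difference between shares was not tested.

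Genes of the promoter and gene body classes were also called more often than all tested genes. Genes of promoter peaks were higher in 153 (12.01%) and lower in 79 (6.20%) of 1274. For genes of distal peaks the shares were 13.1% and 8.92%, so the upward lean was not particular to them. Genes of gene body peaks were higher in 11.3% and lower in 15.3% of 1265. Genes with no peak were higher in 4.97% and lower in 7.75% of 11547. Within the distal set, genes with 2 or more distal peaks gave 24 higher and 9 lower of 160, and genes with 1 gave 58 and 47 of 468. With the nearest peak under 10 kb from the start 28 were higher and 11 lower of 172, and at 10 kb or more 38 and 30 of 317. Genes with a peak above the median peak in Rcor2 over input were higher in 9 and lower in 3 of 59. Those with peaks below it and none above were higher in 12 and lower in 4 of 61. Genes with neither were higher in 61 and lower in 49 of 508. More genes were thus higher than lower in each of these groups, as in the distal set as a whole. Of all tested genes 6.16% were higher and 8.29% lower. Genes named for peaks over tRNA genes gave 5 higher and 0 lower of 33, and genes of other distal peaks 79 and 56 of 607. The 5 were Hist1h2ai, Tmpo, Aurkb, Hist1h2bk and Opn1sw, named after their values were seen.

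**Figure D4:**
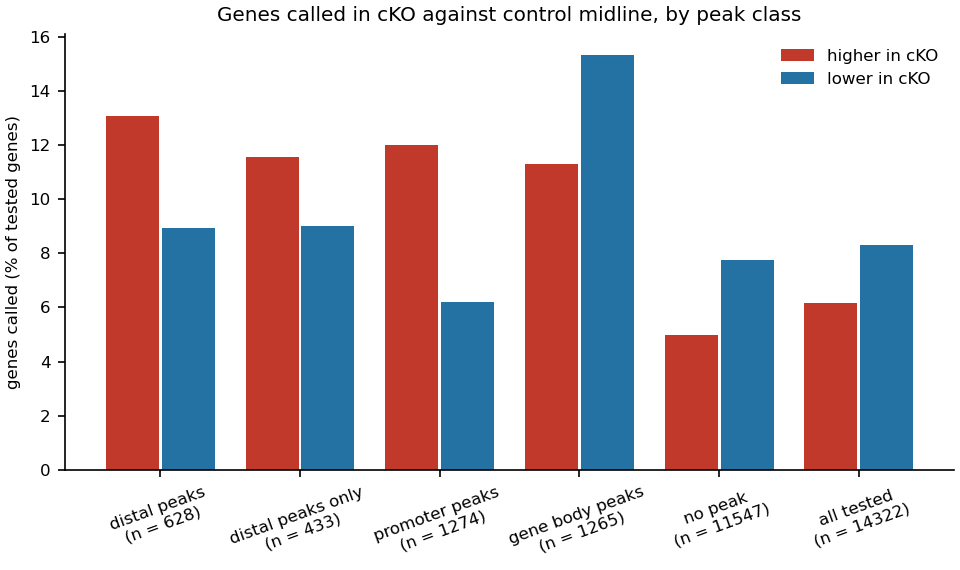
Percentage of tested genes called higher or lower in cKO than in control midline (limma adjusted p under 0.05), for genes of distal peaks, of distal peaks only, of promoter peaks, of gene body peaks, of no peak, and for all tested genes; n is the number of genes tested. For distal peaks 13.1% were higher and 8.92% lower, against 6.16% and 8.29% of all tested genes.

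Most radial glial genes with distal peaks rose. Of the 29 genes on the radial glia list 9 had a distal peak, against 4.38% of all tested genes, and 7 of those 9 rose while none fell; of the whole list 16 rose and 1 fell. Hes5, with 6 distal peaks, had 2296 and 2275 normalized counts in cKO midline, against 1800 and 1890 in control midline (log2 difference 0.31, SE 0.052, limma adjusted p = 0.0091). Hes1, another Notch effector, had 1713 and 1602 in cKO, against 1392 and 1375 in control midline (0.26, limma adjusted p = 0.023). Sox9, a transcription factor of neural stem cells and glia, had 3568 and 3094 in cKO, against 2601 and 2713 in control midline (0.32, SE 0.070, limma adjusted p = 0.020). In these 3 genes both cKO libraries exceeded both controls. Cdon, a co-receptor for hedgehog ligands with 3 distal peaks, had 17957 and 16990 in cKO, against 14345 and 14055 in control midline (0.30, limma adjusted p = 0.0079). Emx1 and Emx2, homeobox factors of the dorsal telencephalon, rose by 0.20 and 0.25, and Id3, an inhibitor of bHLH factors, by 0.24 (limma adjusted p = 0.041). The Id3 call was lost by edgeR, by DESeq2 and without 3 of the 4 libraries. Fabp7, a fatty acid binding protein of radial glia, had 12040 and 12190 in cKO and 11599 and 11425 in control midline and did not pass (limma adjusted p = 0.281). Nfib, with 2 distal peaks, did not pass either (-0.08, limma adjusted p = 0.43). All 7 calls were lost without control replicate 1 and without control replicate 2, with adjusted p for Hes5 up to 0.093 over the settings tried, and that of Hes1 also without cKO replicate 1. Of the 18 distal peaks of all 9 genes, called or not, 1 at Hes5 lay above the median peak, and 2 at Hes5 and 1 at Cdon below it. Hes1 also had a promoter peak and Nfib a gene body peak.

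Some Wnt pathway genes with distal peaks rose. Of 30 genes on the list of hem, Wnt and Bmp genes 7 had a distal peak, and 3 of the 7 rose while none fell; of the whole list 11 rose and none fell. Axin2, a feedback inhibitor and readout of Wnt signalling, had 3983 and 3724 normalized counts in cKO, against 3032 and 3050 in control midline (0.34, SE 0.050, limma adjusted p = 0.0071). Lfng, a fringe glycosyltransferase that modifies Notch, had 2449 and 2507 in cKO, against 2008 and 1979 in control midline (0.31, limma adjusted p = 0.0078). Tcf7l1, a Wnt pathway repressor, rose by 0.52 (limma adjusted p = 0.048), a call lost by edgeR, DESeq2, quantile normalization and without 3 of the 4 libraries. Msx1, with the tall peak described above, had 94.6 and 108.6 in cKO and 97.5 and 112 in control midline, which overlap (limma adjusted p = 0.885). Wnt7b, a Wnt ligand with a distal peak above the median peak (29 and 57 in Rcor2, 19 and 16 in input), had 4067 and 4411 in cKO and 4253 and 4705 in control midline (limma adjusted p = 0.447). Outside that list, Fzd9, with 7 distal peaks, had 2636 and 2416 in cKO, against 1877 and 1833 in control midline (0.44, SE 0.058, limma adjusted p = 0.0057). The Axin2 and Lfng calls were lost without either control library, and the Fzd9 call without control replicate 2. Axin2, Lfng and Wnt7b each also had a gene body peak, and Tcf7l1 a gene body and a promoter peak. No Fzd9 peak lay above the median peak, while the taller peaks of Msx1 and Wnt7b belong to genes whose libraries overlapped.

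Proneural genes with distal peaks moved in both directions. Of the 5 with a distal peak of 18 on the list, 2 rose and 3 fell; of the whole list 5 rose and 6 fell. Neurog2, which commits progenitors to neurons, had 8066 and 8024 in cKO, against 6609 and 6673 in control midline (0.28, SE 0.042, limma adjusted p = 0.0073). Dll1, a Notch ligand, had 5519 and 4975 in cKO, against 4180 and 3856 in control midline (0.38, limma adjusted p = 0.0088). Both act in progenitors and newborn neurons. Neurod6, a factor of young cortical projection neurons, had 13923 and 16383 in cKO, against 20246 and 20051 in control midline (-0.42, SE 0.072, limma adjusted p = 0.0099). Neurod2, of the same family, fell by 0.36 on the log2 scale (limma adjusted p = 0.014). Insm1, a zinc finger factor that recruits LSD1, fell by 0.21 on the log2 scale (limma adjusted p = 0.042), a call lost by DESeq2, quantile normalization and without 3 of the 4 libraries. All 5 calls were lost without control replicate 1 and without control replicate 2. Neurog2 also had a promoter peak.

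Cell cycle genes with distal peaks all rose, as did much of their list. The 3 with a distal peak of 33 rose, and of the whole list 21 rose and none fell. Kif11 had 8353 and 8368 in cKO, against 7143 and 7272 in control midline (0.21, SE 0.042, limma adjusted p = 0.015), and it has the third tallest distal peak. Mcm2, a subunit of the replicative helicase, rose by 0.28, and Aurkb, a mitotic kinase with 4 distal peaks of which 3 lie over tRNA genes, by 0.25. Aurkb had 2199 and 2029 in cKO, against 1766 and 1793 in control midline (limma adjusted p = 0.026). In each of the 3 genes both cKO libraries exceeded both controls. Each call was lost without either control library, and that of Aurkb also without cKO replicate 1. Kif11 and Mcm2 each also had a promoter peak.

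Several of the genes with distal peaks that fell with the smallest adjusted p are known from neurons. Snap25, a synaptic vesicle fusion protein, had 1224 and 1501 normalized counts in cKO, against 2293 and 2302 in control midline (-0.76, SE 0.088, limma adjusted p = 0.0043). Nrxn3, a presynaptic adhesion protein, had 582 and 586 in cKO, against 888 and 930 in control midline (-0.64, limma adjusted p = 0.0043). Grik3, a kainate receptor subunit, had 1293 and 1403 in cKO, against 1977 and 1973 in control midline (-0.55, limma adjusted p = 0.0043). These 3 calls held without any single library. Syn2, a synaptic vesicle protein, fell by 0.43 on the log2 scale, and Kcnq3, a potassium channel subunit, by 0.88. Kcnq3 had 572 and 834 in cKO, against 1279 and 1270 in control midline, and this call and that of Syn2 were lost without either control library. Others among the 12 with the smallest adjusted p were Runx1t1, a transcriptional co-repressor, Rbfox2, a splicing factor, Nell2, a secreted guidance protein, and the kinase Mapk8, each of which lost the call without at least 1 control library. Bdh1 (-0.41, limma adjusted p = 0.00665) and Fam174b (-0.57, limma adjusted p = 0.0088) were also among the 12. Both of these calls were lost without either control library. On the pan-neuronal list only Snap25 and Nefl had a distal peak, and Nefl had 117 and 134 in cKO and 168 and 154 in control midline (limma adjusted p = 0.145). Of the whole pan-neuronal list 19 of 25 fell, so Snap25 moved with a list most of whose genes have no distal peak. Each of these genes had 1 distal peak except Rbfox2, with 2. The Syn2 peak lay below the median peak (14.5 in mean Rcor2 height) and none lay above. Nrxn3, Grik3, Kcnq3 and Runx1t1 each also had a gene body peak, and Rbfox2 and Nell2 a promoter peak.

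Axon guidance genes with distal peaks went both ways. Of 49 on the list 6 had a distal peak, and 2 of the 6 rose and 2 fell; of the whole list 7 rose and 16 fell. Robo3, a receptor that lets axons cross the midline of hindbrain and spinal cord, had 137 and 93.0 in cKO, against 43.9 and 30.3 in control midline. That is the largest log2 difference of a called gene with a distal peak, 1.60 (SE 0.26, limma adjusted p = 0.0088), in a gene of low counts, and the call was lost without control replicate 2. Its peak had 15 and 16 in Rcor2, against 20 and 19 in input. Unc5a, a netrin receptor, rose by 0.26 (limma adjusted p = 0.030), a call lost by edgeR and DESeq2. Cntn2, an axonal adhesion protein, had 28619 and 31313 in cKO, against 37401 and 37270 in control midline (-0.32, limma adjusted p = 0.010). Plxna2, a semaphorin receptor with 5 distal peaks, had 20270 and 21102 in cKO, against 24119 and 25079 in control midline (-0.25, limma adjusted p = 0.013). The calls of Cntn2, Plxna2 and Unc5a were lost without either control library, and that of Unc5a also without cKO replicate 1. Plxna2 and Unc5a each also had a gene body peak. Epha4, with a peak above the median peak, and Ntn1, a netrin ligand, did not pass, with log2 differences of -0.08 and 0.13.

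Other lists held 1 to 3 genes with a distal peak. Fgfr3, a fibroblast growth factor receptor, had 8488 and 8142 in cKO, against 6690 and 7003 in control midline (0.28, limma adjusted p = 0.0091), while its peak lay below the median peak, with 12 and 15 in Rcor2 and 30 and 16 in input. Crabp1, a retinoic acid binding protein, rose by 0.44. Sp8, a zinc finger factor of the commissural plate and of some interneurons, had 816 and 701 in cKO, against 499 and 509 in control midline (0.58, limma adjusted p = 0.0078), while 6 of the 17 tested genes on its interneuron list fell. Among upper-layer genes, of which 8 fell and 1 rose over the whole list, Ptn fell by 0.23 on the log2 scale, and Cux2 had 812 and 822 in cKO and 920 and 942 in control midline (limma adjusted p = 0.088). Among deep-layer genes, also with 8 lower and 1 higher over the whole list, Foxp1 fell by 0.25 on the log2 scale, and Fezf2, whose peak 19751 bases upstream lay above the median peak (14 and 19 in Rcor2, 4 and 5 in input), had a log2 difference of -0.10 (limma adjusted p = 0.184). Zfp217, on the list of CoREST partners, had 1923 and 1832 in cKO, against 1303 and 1293 in control midline (0.53, SE 0.055, limma adjusted p = 0.0039). The Zfp217 call held without any single library, and those of Fgfr3, Crabp1, Sp8, Ptn and Foxp1 were lost without either control library, that of Ptn also without cKO replicate 1. Gse1, another of that list, with 4 distal peaks, had 6217 and 5571 in cKO and 5123 and 5341 in control midline (limma adjusted p = 0.094). Ptn, Cux2 and Gse1 each also had a gene body peak, Fezf2 a promoter peak, and Foxp1 both kinds.

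**Figure D5:**
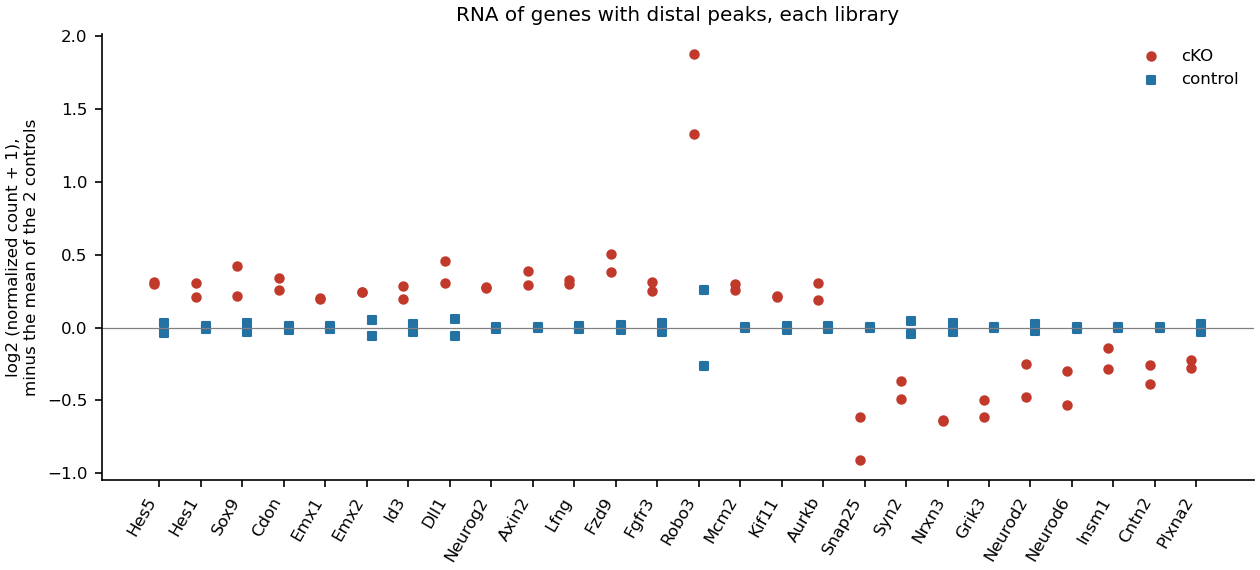
Log2(normalized count + 1) of genes with distal peaks in each cKO and control library, minus the mean of the 2 control libraries, for listed progenitor and patterning genes, cell cycle genes and neuronal genes. Robo3 shows the largest difference, 1.60 on average, and both cKO libraries lie under both controls for Snap25, Nrxn3 and Grik3.

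Outside the lists, the smallest adjusted p among genes that rose belonged to Pdpn, a membrane glycoprotein of glia and epithelia, with 2357 and 2199 in cKO, against 1471 and 1522 in control midline (0.61, SE 0.057, limma adjusted p = 0.0030). Nfic, a nuclear factor I gene with 3 distal peaks of which 2 lay below the median peak, had 1655 and 1524 in cKO, against 1095 and 1079 in control midline (0.55, limma adjusted p = 0.0043). Crb2, an apical polarity protein of the neuroepithelium, had 3239 and 3080 in cKO, against 2348 and 2326 in control midline (0.43, limma adjusted p = 0.0043). In all 3 the cKO libraries exceeded both controls, and the calls held without any single library. None of the 3 had distal peaks only: Pdpn and Crb2 each also had a promoter peak, and Nfic a gene body peak. Ccdc8, Kif2c, Plch1 and Rftn2, also among the 12 with the smallest adjusted p, rose by 0.58, 0.35, 0.41 and 0.53, and each lost the call without at least 1 control library. Ccdc8 and Kif2c each also had a promoter peak. Echdc2, whose peak had one of the highest ratios to input, had 322 and 331 in cKO, against 237 and 224 in control midline (0.50, SE 0.10, limma adjusted p = 0.018), a call lost without either control library. The 7 genes that rose 2-fold or more, named after their values were seen, were Robo3, Chrnb4, Cer1, A330074K22Rik, C130026L21Rik, Opn1sw and Fam107a. All were low. Chrnb4, a nicotinic receptor subunit, had the highest mean, with 133 and 109 in cKO, against 58.5 and 49.7 in control midline. Cer1, a secreted Bmp and Nodal antagonist, had 63.8 and 58.7 in cKO, against 19.5 and 30.3 in control midline. Of the genes named for the 10 tallest distal peaks, Kif11 was called, and Trim27, Trim41, Tcf20, Urm1, Fam222a, Gm15446 and Msx1 were not, with log2 differences from -0.48 to 0.17.

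Promoters of the genes with distal peaks were GC-rich. Of the 878 genes 642 had a promoter window in RefSeq, with a median of 58.7% G and C, against 52.7% over all 27025 windows. The letters TTCAGCACC and GGACAGCGC, the half-sites of the element that REST binds, were searched on both strands. The first stood in 4 of the 642 (0.623%), against 0.359% of all windows, and the second in 8 (1.25%), against 0.433%. The E-box letters CAGCTG stood in 18.4%, against 16.1% of all windows, and CACGTG in 9.50%, against 7.24%. These are counts of letters in windows of differing base composition, with no test, and none of the 5 motifs searched contains another.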

How the data were processed

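ChIP-seq came as 1 table of peaks and RNA-seq as 1 table of genes, and sample titles gave the groups and replicate numbers. HISAT2 2.1.0, Trim Galore and the build mm10 stand in the submitters' processing notes, with no step named. No source used here gives the gene counter, the peak caller's settings or the rule behind location classes and gene names. Per the file headers, the authors' peak table gives each peak a height (signal, a coverage) in the 6 ChIP and input libraries, a pileup signal, a fold enrichment (ratio) over IgG and -log10 of q. Its headers for p and q were spoiled and were read by place and range. Heights are not read counts and have no known depth, so intervals were not computed. Per the file headers, the authors' RNA table holds normalized counts (a signal), with their own log2 fold changes and p-values. All deposited values were whole multiples of 1 step per library (100% within a tolerance of 0.01), which gave whole reads for edgeR and DESeq2 as alternatives. edgeR called 1742 genes.

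RNA was tested by limma-trend (limma 3.58.1, R 4.3.3) on log2(normalized count + 1) over 14324 genes with a mean of at least 10, two-sided, no replicate block, with 2 residual and 6.21 prior degrees of freedom, called at a Benjamini-Hochberg adjusted p under 0.05. Peaks were tested on log2(height + 0.5), centred on each library's median peak, Rcor2 against input, likewise (2 residual and 181 prior degrees of freedom). With 2 libraries a group an exact permutation test cannot go below p = 0.333. Both fits were tested on simulated data. Gene starts, tRNA genes, promoter windows and microRNAs came from RefSeq (GRCm38.p6). Named genes and peaks followed a rule: the 10 tallest, the 10 highest and 5 lowest ratios of Rcor2 to input, the 5 genes with the most peaks, the 12 called genes with the smallest adjusted p in each direction, and called members of 12 gene lists. The members and lists were chosen with earlier results of these data known. No genome was used, so peak sequence was read only inside promoter windows. Figures used matplotlib 3.10.9.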

Additional observations from a re-analysis of the deposited data

How the results depend on the processing

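Genes of distal peaks called in cKO midline numbered 138, against 89 for genes with no peak of another class and 73 for peaks with a q under the distal median, both with fewer genes tested. The other planned settings gave 116 (DESeq2) to 144 (replicate block), where all genes gave 1574 to 2095. Leaving out 1 library gave 10 to 205 for distal genes and 140 to 3453 for all genes. Alternatives chosen after seeing the data gave 135 without peaks over tRNA genes, 119 without peaks in coding genes or promoter windows, and 117 by the authors' deposited test. Distal peaks that differed from the median peak numbered 200; they were 128 with a fold enrichment of at least the median (fewer peaks tested), 47 with no centring, 167 with the replicate block, and 11 to 101 without 1 library. Limma without trend gave 87 above and 56 below. Leaving out a library moved the split too, with 20 above and 49 below without Rcor2 replicate 1, 26 and 75 without Rcor2 replicate 2, 22 and 4 without input replicate 1, and 8 and 3 without input replicate 2. Distal peaks with Rcor2 above both inputs numbered 510 of 1219. They were 316 of the 656 that passed the fold enrichment filter, and 390 of 1219 with scaled heights. Without 1 library they were 521 to 929 of 1219, where the count can only stay or rise because fewer heights are compared. The same counts over all peaks were not made for these settings. The difference from other peaks in log2 Rcor2 over input was 0.017 to 0.060 without 1 library and 0.021 without peaks over tRNA genes. Over IgG it was -0.0030, and -0.012 to 0.036 without 1 library. Hist1h4h, at -0.04, was 0.19 without cKO replicate 1 (limma adjusted p = 0.045) and -0.26 without cKO replicate 2 (limma adjusted p = 0.0043). Of 48 called named genes, 37 and 40 lost the call without control replicate 1 and 2. The cause of these moves was not tested. Replicates share only a number: deviations of same-numbered libraries correlated at 0.24 in RNA and -0.019 in ChIP, the replicate block gave 2076 genes and 144 of distal peaks, and it left the class differences at 0.038 and -0.0030 and no named gene changed its call.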
